A study of Mus musculus with 24 samples.

Results

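Complement is a cascade of plasma and tissue proteins that marks surfaces for clearance. In the classical pathway the recognition molecule C1q carries the proteases C1r and C1s, C1s cleaves C4 and C2, and the resulting convertase cleaves C3, the protein on which all complement routes meet. The alternative pathway amplifies C3 cleavage through factor B, and the C1 inhibitor holds C1r and C1s in check. The liver is the main source of the circulating components, made largely by hepatocytes, while fibroblasts, mesothelial and endothelial cells can make several of them locally. The 6 genes described here are C1ra and C1s1 (the proteases of C1), C4b (the C4 protein), C3, Cfb (factor B) and Serping1 (the C1 inhibitor). They were chosen by name, as the protein-coding rows with these symbols, 6 of the 56748 genes of the table (21970 of them protein-coding).

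RNA was sequenced from endothelial cells of the mouse liver, isolated with magnetic beads against Cd31 or Cd146 (the latter described as sinusoidal cells) and taken 1 week after lentiviral transduction. The nc shRNA cells carried a non-coding control hairpin and the P16 shRNA cells a hairpin against P16Ink4a, the cell cycle inhibitor encoded by Cdkn2a. The empty vector cells carried the overexpression vector without an insert, and the P16 cells the same vector with P16Ink4a fused to GFP. With 4 constructs in each of 2 populations there are 8 groups, with 3 libraries a group. All animals were described as C57BL/6 mice, female and 3 months old, and every library comes from cultured and transduced cells, so that no untransduced cells enter any group. The labels do not tell how many animals went into a culture, and the methods give another n than the 3 libraries analysed here. The libraries carry replicate numbers from 1 to 6, and not every construct has every number.

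The libraries held 15409767 to 26470392 counted reads (median 20329205), and a floor of 3 counts corresponded to 0.106 to 0.204 CPM (the read count normalised to the size of the library, a limit that covers counting error only). The targeted gene followed the labels in every library. Cdkn2a was at 36.2 to 75.9 CPM with nc shRNA and 5.12 to 9.22 with P16 shRNA in Cd31+ cells, and at 94.5 to 196 and 7.79 to 25.7 CPM in Cd146+ cells. With the empty vector it was at 32.5 to 79.9 CPM and with P16 at 137 to 330.1 in Cd31+ cells, and at 69.6 to 104 and 228 to 834 CPM in Cd146+ cells.

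Several libraries stood apart from their description. The 16 libraries numbered 1, 2 or 3 held 2353 to 6116 reads on 4 Y-linked genes (Ddx3y, Eif2s3y, Kdm5d and Uty) and at most 4 reads on Xist, against the described female sex. The 8 libraries numbered 4, 5 or 6 held 6698 to 17948 reads on Xist and at most 4 on the Y-linked genes. The 3 Cd146+ libraries numbered 3 (nc shRNA, P16 shRNA and P16) had a summed level of 12 endothelial markers of only 21.5 to 48.9 CPM, while the other 21 libraries lay between 219 and 1921 CPM. The same 3 libraries had the 3 highest sums of 4 mesothelial markers (Msln, Upk3b, Lrrn4 and Wt1), 986 to 1335 CPM. In all libraries the summed mesenchymal markers were abundant (10 genes, 4608 to 47590 CPM), mostly through collagens (median of Col1a1 10940 CPM, Col1a2 6745 and Col3a1 4042). The list was mixed: Pdgfrb had a median of 313 CPM, Lum of 9.58 and Des of 2.18, Reln was above the floor in 5 libraries and Lrat at 0 in 20. The sinusoidal markers were mixed too: Stab1 had a median of 27.2 CPM (at most 430.5) and Lyve1 of 1.24 CPM (at most 7.53), Stab2 was above the floor in 21 libraries but did not exceed 0.962 CPM, and Clec4g was at 0 in 18 libraries. Hepatocyte markers were near the floor (sums of 8 genes from 0.136 to 2.64 CPM, Apoc3 at 0 in all 24 libraries). The sums of 8 macrophage markers ran from 12.6 to 270.9 CPM, with Lyz2 at a median of 49.1 CPM, Csf1r at 7.49, Cd68 at 4.46 and Adgre1 at 2.04, while Clec4f and Marco, markers of Kupffer cells, were at 0 in 19 and 21 libraries.

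The genomic windows before the genes that moved together are shown for reference. RefSeq promoter entries (GRCm38.p6) were at hand for 3 of the 6 members, C1ra, C1s1 and C3, and the 120 bases upstream of each start are given 5′ to 3′ on the strand of the gene. C1ra lies on the plus strand at chr6:124512501-124512620, C1s1 (the first of its 2 entries) on the minus strand at chr6:124542360-124542479, and C3 on the minus strand at chr17:57228137-57228256. Capitals mark a match to the searched C/EBP motif.
C1ra: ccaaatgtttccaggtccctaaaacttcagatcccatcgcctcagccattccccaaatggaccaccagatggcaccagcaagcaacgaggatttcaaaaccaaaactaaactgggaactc
C1s1: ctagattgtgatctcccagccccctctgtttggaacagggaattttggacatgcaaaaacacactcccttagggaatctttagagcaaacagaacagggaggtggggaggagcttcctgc
C3: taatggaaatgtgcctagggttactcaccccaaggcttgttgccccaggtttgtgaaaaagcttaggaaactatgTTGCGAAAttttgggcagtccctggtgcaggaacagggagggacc
The whole entries of 300 bases, which run 250 bases before to 50 bases after the start, were searched on both strands for 6 motifs. The C/EBP motif TTGCNNAA was in all 3 entries, at position -45 from the start in C3, -242 in C1s1 and 17 in C1ra, and 10.8% of the 32851 entries hold it. The GAS motif TTCNNNGAA was in C1ra alone of the 3, at position 33, and in 8.3% of all entries. The ISRE core TTTCNNTTT (10.6% of entries), the NF-kB motif GGGANTTTC (1.11%), the AP-1 motif TGANTCA (7.81%) and the E2F motif TTTNNCGC (5.17%) were in none of the 3, and no 2 matches overlapped. A match of letters is a description only, and its absence from these windows says nothing of a factor.

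The table lists C1ra (ENSMUSG00000055172) on the plus strand of chromosome 6 from 124489364 to 124500402 and C1s1 (ENSMUSG00000038521) on the minus strand of the same chromosome from 124507304 to 124519318. C4b (ENSMUSG00000073418) is listed on chromosome 17 from 34947354 to 34962856, Cfb (ENSMUSG00000090231) on chromosome 17 from 35075350 to 35081494 and C3 (ENSMUSG00000024164) on chromosome 17 from 57510970 to 57535136, all on the minus strand. Serping1 (ENSMUSG00000023224) is on the minus strand of chromosome 2 from 84595731 to 84605788. These coordinates differ from those of GRCm38, and their build was not settled, so that they are not to be joined with the RefSeq windows. C3 and Serping1 had no 75-base stretch in common with the transcript of another gene. Of the 75-base stretches of C1ra, 42.4% also occur in another gene, mostly C1rb, of C4b 23.5% (C4a), of C1s1 14.7% (C1s2) and of Cfb 81.2% (Gm20547, an overlapping gene), so that their reads are uncertain to that extent. C1rb, C1s2 and C4a themselves were low (0.932, 0.52 and 1.07 CPM on average over 24 libraries).

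Levels between genes were compared per length, in the FPKM that the authors deposited. C1s1 (mean 36.8 FPKM over 24 libraries), C1ra (29.1) and C3 (24.02) were the abundant members, C4b (2.47) and Serping1 (2.09) were low, and Cfb (0.0514) was at the limit of detection. All 5 of the former were measured in every library, with one exception: Serping1 was at the floor of 3 counts in the Cd31+ nc shRNA library number 1. Cfb had 0 to 17 counts and exceeded 3 counts in 7 of 24 libraries. It passed the low-count filter in no comparison, so that 5 of the 6 members were tested throughout. Since 81.2% of the 75-base stretches of Cfb also occur in Gm20547, its counts need not hold all of its reads. The handling of such reads is not known, and the level of Gm20547 is not given.

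**Figure D1:**
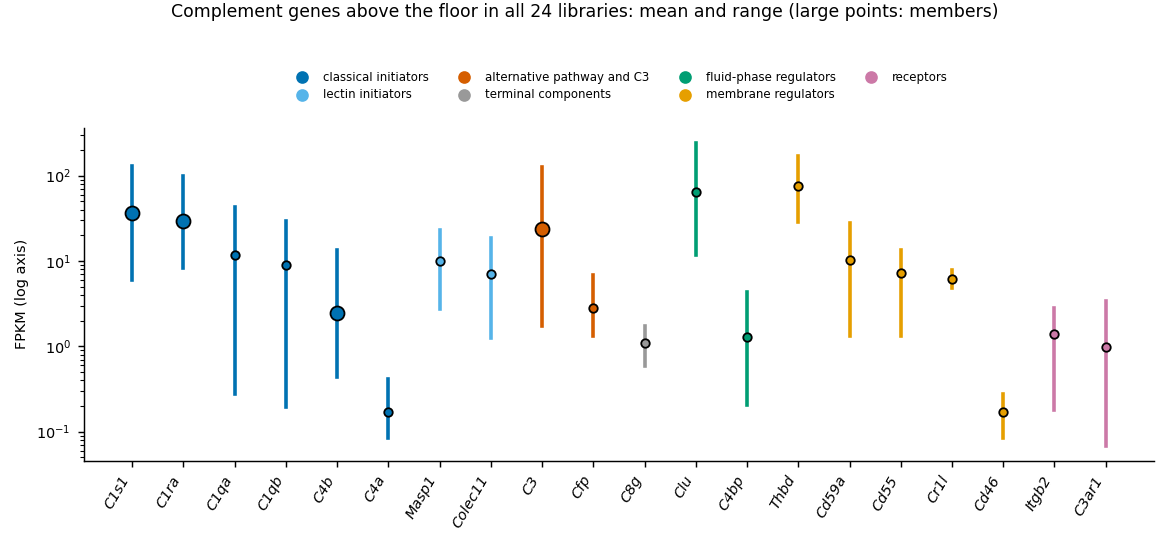
Level of the complement genes that exceeded the floor in all 24 libraries, as FPKM on a log axis. Points are means over the libraries, lines run from the lowest to the highest library and large points mark the members. C1s1, C1ra and C3 sit among the abundant genes (36.8, 29.1 and 24.02 FPKM on average), while the genes of the terminal pathway are represented by C8g alone.

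The rest of the cascade was measured with a list of 52 complement genes in 7 role classes. Among the initiators of the lectin pathway, Masp1, a protease of the same family as C1r and C1s, was the most abundant (9.91 FPKM). Of the fluid-phase regulators, clusterin (Clu, 64.9 FPKM) was on average above each of the 6 members, and so was thrombomodulin (Thbd, 74.8 FPKM) among the membrane regulators. C1q, whose A chain C1qa had 11.7 FPKM, ranged over the libraries from 0.275 to 43.0 FPKM, and its chains are also known as macrophage genes. In the alternative pathway only C3 was abundant, with properdin (Cfp) at 2.83 FPKM and factor D (Cfd) at no more than 2 counts in any library. Of the terminal components, C8g (1.10 FPKM) was measured in every library, and the next highest, C9, was at 0.02 FPKM on average. Among the receptors Itgb2 was highest (1.40 FPKM).

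The spread within a group differed between members and groups. The 3 libraries of C1ra with the empty vector in Cd146+ cells lay at 45.1 to 65.1 CPM, while others spread much wider. C3 ranged from 9.10 CPM in the Cd31+ empty vector library number 2 to 672 CPM in the Cd146+ P16 library number 3. By group means, C3 was highest in Cd146+ cells with P16 (315 ± 309 CPM, SD, n = 3), then with nc shRNA (199 ± 174) and P16 shRNA (194 ± 217). It followed in Cd31+ cells with P16 shRNA (131 ± 102), Cd146+ cells with the empty vector (59.5 ± 44.9), and Cd31+ cells with the empty vector (42.2 ± 45.9), P16 (35.3 ± 18.5) and nc shRNA (28.8 ± 17.6). For this gene, as for the 5 others, the libraries of each group overlapped with those of the next group in the order of means, so that no neighbours in any of the orders were separated.

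**Figure D2:**
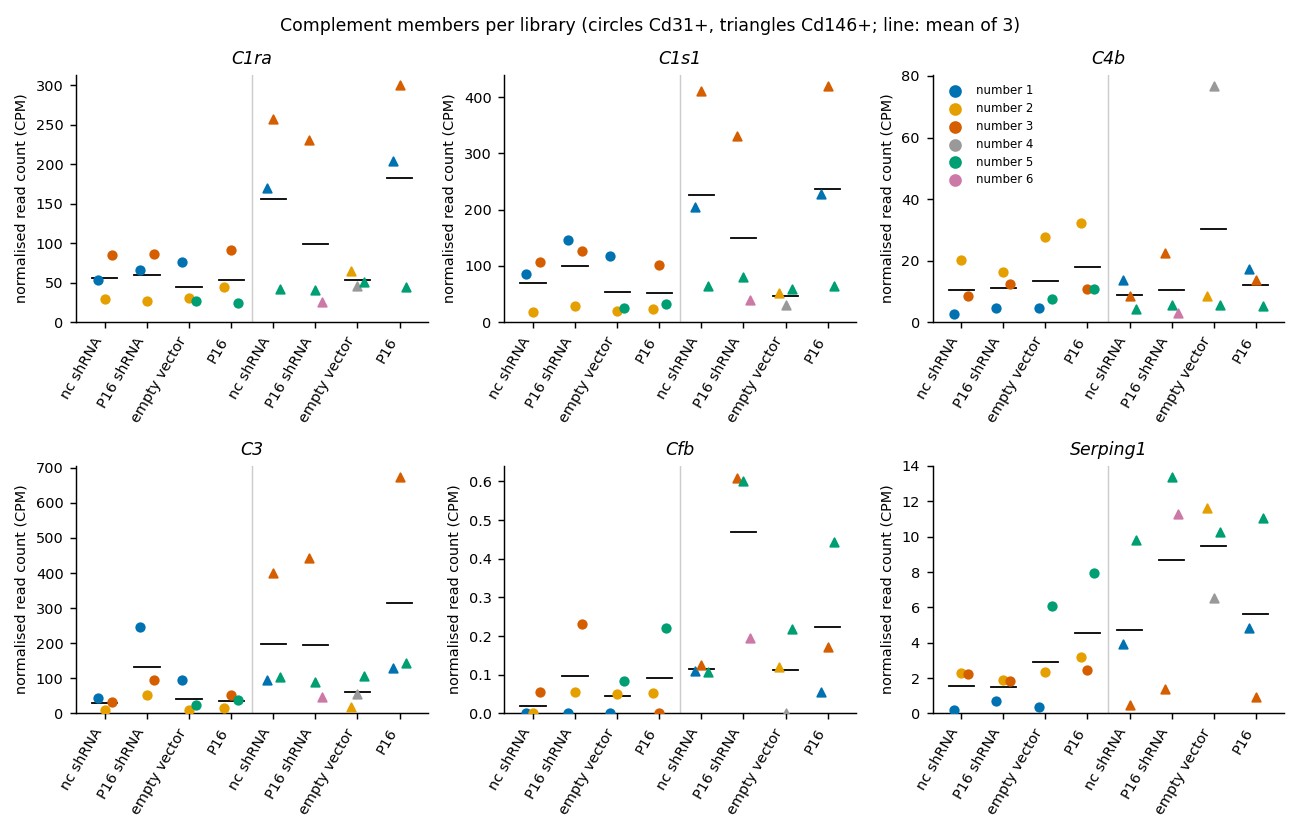
Normalised read count (CPM) of the 6 members in each of the 24 libraries, by construct, with Cd31+ cells on the left (circles) and Cd146+ cells on the right (triangles) of each panel. Colours give the replicate number and lines the mean of the 3 libraries of a group. Only C3 with P16 shRNA in Cd31+ cells, and C3 and C1s1 with P16 in Cd146+ cells, lie wholly above their control libraries among the 5 members that could be tested.

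C1s1 and C1ra had the same group order at the top. C1s1 was at 237 ± 179 CPM with P16, 227 ± 175 with nc shRNA and 149.9 ± 157 with P16 shRNA in Cd146+ cells, and lowest with the empty vector in the same cells (46.8 ± 15, SD, n = 3 each). C1ra was at 183 ± 129 CPM, 156 ± 108 and 99.0 ± 114 in the same 3 groups, and lowest with the empty vector in Cd31+ cells (44.4 ± 28.03, SD, n = 3 each). C4b was highest in the Cd146+ empty vector group (30.3 ± 40.3 CPM, SD, n = 3). There the mean rested on library number 4 (76.8 CPM), since the other libraries of the group had 8.39 and 5.67 CPM. Serping1 differed from C1s1 and C1ra in the place of the Cd146+ empty vector group, which held its highest mean (9.47 ± 2.62 CPM). Its lowest mean was in Cd31+ cells with P16 shRNA (1.49 ± 0.686, SD, n = 3 each). All its Cd146+ means lay above its Cd31+ means, the nearest being nc shRNA in Cd146+ (4.74 CPM) and P16 in Cd31+ cells (4.53 CPM).

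Much of this spread went with the replicate number of the library. Within a population, libraries with the same number deviated together from the means of their groups, so that the numbers were taken to pair the libraries (the correlations are given with the processing). In a fit of construct and number over the 12 libraries of a population, a test added after the data were seen, the number terms had adjusted p from 1.6e-07 to 0.000133 for the 5 tested members in Cd31+ cells (edgeR, where 29% of genes tested passed 0.05). In Cd146+ cells they ran from 1.05e-06 to 4.94e-05 (edgeR, 59.7% of genes). Of the squared deviations of log2 CPM of these 5 members, the number alone took 60.1% (C3) to 95.8% (C1s1) in Cd31+ cells and 93.7% (C4b) to 99.1% (C1ra and C1s1) in Cd146+ cells. The construct alone took 5.39% (C1ra) to 41.3% (C3) and 12.5% (C4b) to 38.2% (C1s1), and the shares overlap where constructs have different numbers. For Cfb, with few counts, the number took 50.3% and 56.1% and the construct 15.4% and 48.2%. In Cd146+ cells there are more numbers than constructs, and numbers 2, 4 and 6 hold a single library each, which the number fits exactly. The shares of other genes were not computed. C3 was the member with the largest share of the construct in Cd31+ cells. In the same fits the construct terms of C3 had an adjusted p of 0.00152 in Cd31+ cells (edgeR, 15.8% of genes passed 0.05) and 0.024 in Cd146+ cells (edgeR, 3.8% of genes), and those of C1s1 an adjusted p of 0.0481 in Cd31+ cells.

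**Figure D3:**
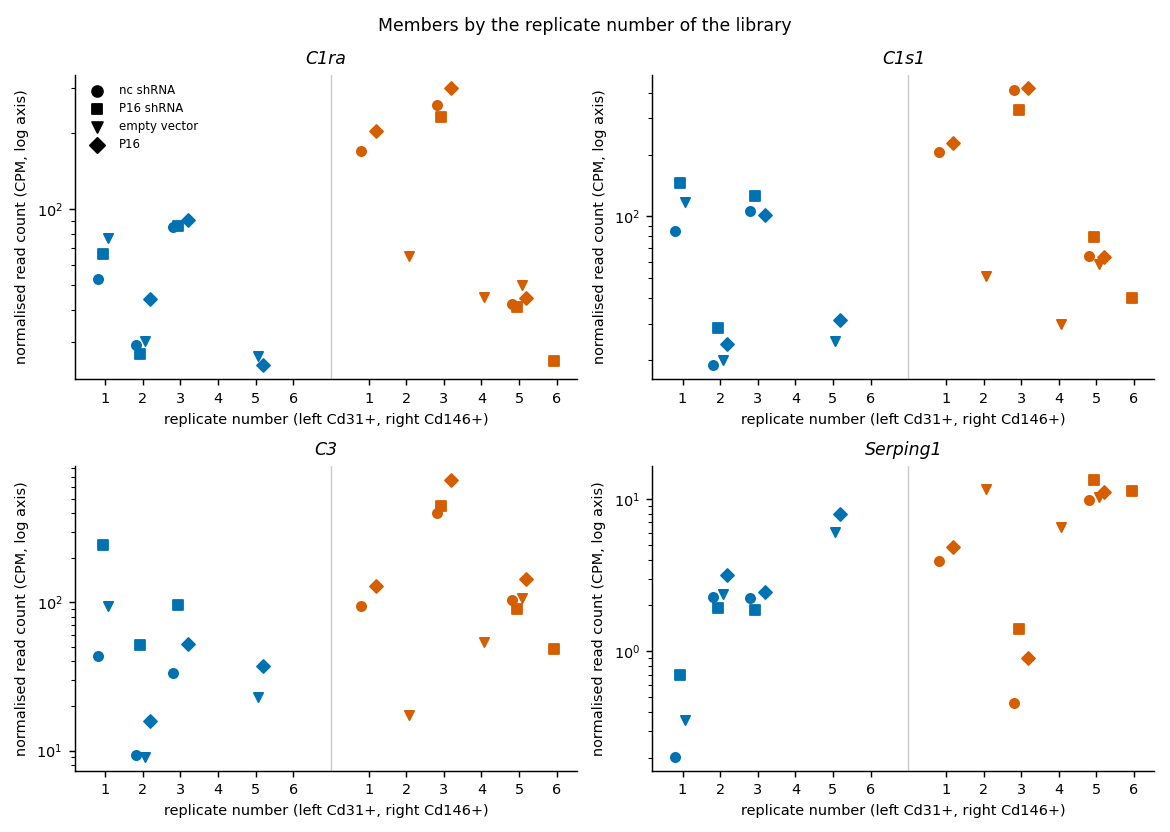
Normalised read count (CPM, log axis) of C1ra, C1s1, C3 and Serping1 by replicate number, with Cd31+ libraries in blue on the left and Cd146+ libraries in orange on the right of each panel. Marker shapes give the construct. C1ra and C1s1 lie close together within a number. C3 with P16 shRNA in Cd31+ cells lies above the other constructs of its number, and Serping1 spreads from 0.204 to 0.697 CPM in Cd31+ number 1 and from 0.459 to 1.39 CPM in Cd146+ number 3.

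The numbers carried their own pattern. In Cd146+ cells C1ra was at 230.5 to 299.7 CPM in the libraries numbered 3, at 170 and 204 in those numbered 1, at 65.1 in number 2, at 41.2 to 50.3 in those numbered 5, at 45.1 in number 4 and at 25.2 in number 6. C1s1 went from 330.2 to 420.3 CPM in number 3 down to 30.0 CPM in number 4. C3 was at 399.5 to 672 CPM in number 3, and no other library of the study exceeded 246 CPM. Serping1 was lowest in the same 3 libraries among the Cd146+ cells (0.459 to 1.39 CPM), where its other libraries had 3.93 to 13.4 CPM.

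In Cd31+ cells, C1s1 separated the numbers 1 and 3 (85.0 to 146 CPM) from 2 and 5 (18.8 to 31.4 CPM). Serping1 was at 0.204 to 0.697 CPM in number 1 and at 6.07 and 7.97 CPM in number 5. The numbers 4, 5 and 6 are those with Xist reads. In the Cd146+ libraries C1ra lay at 25.2 to 50.3 CPM in the 6 with Xist and at 65.1 to 299.7 CPM in the 6 with Y-linked reads, which did not overlap. C1s1 (30.0 to 79.5 against 51.3 to 420.3 CPM), C3, C4b, Cfb and Serping1 did overlap there. Serping1 in Cd31+ libraries lay at 6.07 to 7.97 CPM in the 2 with Xist and at 0.204 to 3.17 CPM in the 10 with Y-linked reads. C1ra also did not overlap there (24.2 to 26.3 against 26.7 to 90.7 CPM), while C1s1, C3, C4b and Cfb did. The share of all genes without overlap between these libraries was not counted. A number has either Xist or Y-linked reads and not both, so that the sex-linked transcripts and the other differences between the numbers cannot be told apart.

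C1ra, C1s1 and C3 moved together over the libraries, and Serping1 moved against them most clearly in Cd146+ cells. The correlation of log2 CPM over the 24 libraries was r = 0.93 for C1ra and C1s1 (Spearman's rho 0.877), 0.854 for C1s1 and C3 (rho 0.797) and 0.713 for C1ra and C3 (rho 0.634). Without the 2 libraries farthest from the median these were 0.899, 0.793 and 0.578. Over the 24 libraries Serping1 had r = -0.431 with C1ra, -0.443 with C1s1 and -0.279 with C3. These were -0.277, -0.298 and -0.255 without the 2 libraries farthest from the median. Serping1 had r = -0.876 with C1ra, -0.871 with C1s1 and -0.806 with C3 over the 12 Cd146+ libraries, and -0.504, -0.589 and -0.471 over the 12 Cd31+ libraries. C4b and C1ra had r = 0.122. These values are descriptions, as libraries of the same number deviated together and are not independent points.

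Marker sums moved with the members too. C3 had r = 0.797 with the mean log2 level of the 4 mesothelial markers over 24 libraries (0.925 in Cd31+ and 0.843 in Cd146+ cells), and C1s1 had r = 0.7. Serping1 had r = 0.734 with the 12 endothelial markers (0.677 and 0.915), while C1ra and C1s1 had r = -0.817 and -0.8 with them in Cd146+ cells, and -0.0128 and 0.0211 in Cd31+ cells. C1s1 and C1ra had r = 0.869 and 0.834 with the 10 mesenchymal markers in Cd31+ cells, and 0.101 and -0.168 in Cd146+ cells. Lists of other cell types gave values as large. With the 4 cholangiocyte markers (Krt7, Krt19, Epcam and Sox9) Serping1 had r = 0.669 (0.877 in Cd31+ and 0.567 in Cd146+ cells). C1ra had -0.326 and -0.887 with them in Cd31+ and Cd146+ cells. C4b had r = -0.663 with the macrophage and -0.584 with the mesenchymal markers over 24 libraries. With the hepatocyte markers, which were near the floor, C4b had 0.884 in Cd31+ and -0.619 in Cd146+ cells. C3 had r = -0.713 with the endothelial markers in Cd146+ cells and -0.0233 in Cd31+ cells. Serping1 had 0.715 and 0.0597 with the macrophage markers in Cd146+ and Cd31+ cells. The part of these cells in the differences between libraries was not tested, and in bulk RNA fewer cells of a type and less RNA per cell cannot be told apart.

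**Figure D4:**
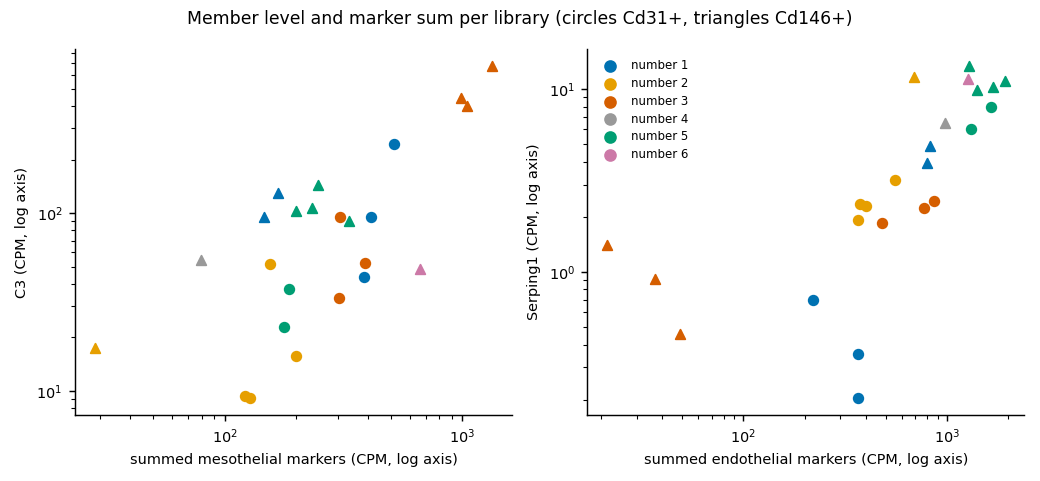
Level of C3 against the summed mesothelial markers (left) and of Serping1 against the summed endothelial markers (right), both in CPM on log axes, for each of the 24 libraries. Circles are Cd31+ and triangles Cd146+ libraries, and colours give the replicate number. The 3 Cd146+ libraries numbered 3 hold the highest C3 (399.5 to 672 CPM) and the lowest endothelial sums (21.5 to 48.9 CPM).

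Among 11258 protein-coding genes, the 3 with the pattern most like a member over the 24 libraries (Pearson's r of log2 CPM) were found for each. For C1ra they were Lmbr1 (0.961), Qpct (0.957) and Nid2 (0.946), and for C1s1 Cpz (0.954), Adcy1 (0.95) and Gas1 (0.939). For C3 they were Wnt9a (0.921), Mmp3 (0.909) and Lrrn4 (0.908), the last being 1 of the 4 mesothelial markers. The genes most like Serping1 were Synpo2 (0.894), Slit2 (0.892) and Adm (0.89). Those most like C4b, Gypc (0.801), Pgghg (0.799) and Plekha4 (0.797), and those most like Cfb, Gla (0.772), Gsdmd (0.771) and Irgm1 (0.75), had lower r, and Cfb has few counts. Of C4b's partners, Pgghg fell to 0.655 without the 2 libraries farthest from the median.

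Silencing of P16Ink4a in Cd31+ cells was compared over the 3 P16 shRNA and the 3 nc shRNA libraries, both numbered 1, 2 and 3. C3 was higher with P16 shRNA. It had 43.8, 9.35 and 33.2 CPM with nc shRNA and 246, 51.9 and 95.3 CPM with P16 shRNA in numbers 1, 2 and 3, so that the groups did not overlap. The ratio within a number was 5.61, 5.55 and 2.87. The log2 fold change was 2.20 (standard error, SE, 0.76, 4.59-fold), with a p under 0.05 and an adjusted p of 0.194 by edgeR's quasi-likelihood test over all genes. With the replicate number as a block it was 2.16 (SE 0.20) with an adjusted p of 0.000948 within the 6 libraries and 0.000544 over the 12 libraries of the population (edgeR), so that the call rests on the pairing of the numbers. In these fits 18.8% and 16.8% of all genes tested were called. DESeq2's Wald test without the block gave an adjusted p of 0.0755, and 7.64% of genes were called by it.

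C3 was the only member at p under 0.05 without the block, where 19.8% of the 14358 genes tested had such a p (9.51% with a higher level) and 1.3% an adjusted p under 0.05 (edgeR), and 27.4% had groups that did not overlap, in either direction. Without P16 shRNA number 1, the library with the highest C3, the log2 fold change was 1.36, the lowest of the fits that each left out 1 library, and without nc shRNA number 1 it was 2.62, the highest. The same comparison had interferon marker sums of 45.0 to 119 CPM with nc shRNA and 265 to 1600 CPM with P16 shRNA (15 genes). The highest of these sums was in number 3, where the ratio of C3 was lowest. C3 had r = 0.251 with the interferon markers over the 12 Cd31+ libraries. The mesothelial sums went from 386 to 518 CPM in number 1, from 122 to 154.5 in number 2 and from 301.4 to 305.4 in number 3, higher with P16 shRNA each time. The mesenchymal sums were also higher in each number (34300 to 47590, 17530 to 21970 and 27050 to 32020 CPM), and the endothelial sums were lower in each (367 to 219, 399.4 to 367 and 776 to 478 CPM). The part of these in the differences of C3 and C1s1 was not tested.

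C1s1 had 85.0, 18.8 and 106 CPM with nc shRNA and 146, 28.7 and 126 CPM with P16 shRNA in numbers 1, 2 and 3. It was higher with the hairpin within each number (ratios 1.72, 1.53 and 1.19), while the groups overlapped. The log2 fold change of 0.53 (SE 0.79) had an adjusted p of 0.761 without the block, and 0.55 (SE 0.12) had an adjusted p of 0.0137 with it (edgeR, with 18.8% of all genes called in that fit). Over 12 libraries the adjusted p was 0.0156 (edgeR, 16.8% of all genes called). C1ra, which varied with C1s1 over the libraries, had ratios of 1.26, 0.92 and 1.01 and a log2 fold change of 0.11 (0.08 with the block, adjusted p = 0.628 by edgeR).

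C4b had ratios of 1.79, 0.802 and 1.47 in numbers 1, 2 and 3, with a log2 fold change of 0.08 (SE 0.78, adjusted p = 0.968 by edgeR). Serping1 had 3, 49 and 40 counts with nc shRNA and 13, 34 and 40 with P16 shRNA. Its log2 fold change of -0.09 (SE 0.78) turned to 0.044 with the block within the 6 libraries. Cfb had 0, 0 and 1 counts with nc shRNA and 0, 1 and 5 with P16 shRNA, which is too few for a test.

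Overexpression of P16Ink4a in Cd31+ cells was compared over P16 libraries numbered 2, 3 and 5 and empty vector libraries numbered 1, 2 and 5. No member had p under 0.05 (edgeR, 3.73% of 14565 genes did, and 0% had an adjusted p under 0.05). C3 had 94.7, 9.10 and 22.9 CPM with the empty vector in numbers 1, 2 and 5 and 15.8, 52.6 and 37.4 CPM with P16 in numbers 2, 3 and 5. The groups overlapped, and the log2 fold change was -0.24 (SE 0.86). In the numbers that both constructs share, P16 was the higher one, with ratios of 1.73 in number 2 and 1.63 in number 5. With the block within the 6 libraries the log2 fold change turned to 0.75 (SE 0.23, adjusted p = 0.101 by edgeR). The block over 12 libraries gave 0.53 with an adjusted p of 0.465 (edgeR). C1s1 likewise turned from -0.04 to 0.30 with the block within the 6 libraries, and had ratios of 1.19 and 1.27.

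The other members also did not pass. C1ra had a log2 fold change of 0.26 (SE 0.59), with ratios of 1.47 and 0.919 in numbers 2 and 5. C4b had 0.43 (SE 0.77), with 4.58, 27.8 and 7.59 CPM against 32.1, 10.8 and 10.8 CPM. Serping1 had 0.62 (SE 0.94), with 0.356, 2.36 and 6.07 CPM with the empty vector and 3.17, 2.45 and 7.97 CPM with P16. Their adjusted p ran from 0.962 to 0.975 (edgeR). Cfb had at most 4 counts in any of these libraries.

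Silencing in Cd146+ cells was compared over nc shRNA libraries numbered 1, 3 and 5 and P16 shRNA libraries numbered 3, 5 and 6. No member had p under 0.05 (edgeR, 11.6% of 15124 genes did, and 0% had an adjusted p under 0.05). C3 had 94.5, 399.5 and 103 CPM with nc shRNA in numbers 1, 3 and 5 and 443 CPM, 90.6 CPM and 48.1 CPM with P16 shRNA in numbers 3, 5 and 6. It was thus near its control within both shared numbers, with ratios of 1.11 and 0.877, and the log2 fold change was -0.04 (SE 0.94), or -0.05 (SE 0.10) with the block over 12 libraries. C1s1 had ratios of 0.804 and 1.25 and C1ra 0.897 and 0.976 in numbers 3 and 5.

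C4b was higher with P16 shRNA in both shared numbers, at 22.4 against 8.59 CPM in number 3 (a ratio of 2.6) and 5.56 against 4.11 CPM in number 5 (1.35). Its log2 fold change was 0.22 (SE 0.80, adjusted p = 0.927 by edgeR) without the block and 0.93 (SE 0.21, adjusted p = 0.0295 by edgeR) with the block over 12 libraries, where 8.33% of genes were called. The block within the 6 libraries gave 0.94 with an adjusted p of 0.249 (edgeR). Without the libraries numbered 3, of which both stood apart by their endothelial markers, the fit without the block turned to -1.07 (SE 0.65, adjusted p = 0.567 by edgeR), as it then rests on numbers 1 and 5 against 5 and 6.

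Serping1 had 3.93, 0.459 and 9.82 CPM with nc shRNA and 1.39, 13.4 and 11.3 CPM with P16 shRNA, with ratios of 3.04 and 1.36 in numbers 3 and 5. Its log2 fold change was 0.88 (SE 1.13), or 0.74 (SE 0.25, adjusted p = 0.0977 by edgeR) with the block over 12 libraries. Cfb had 2, 3 and 2 counts with nc shRNA and 14, 17 and 4 with P16 shRNA and was not tested. Its P16 shRNA libraries all lay above the controls, and among the genes tested 20.5% had groups that did not overlap, in either direction. In the shared numbers 3 and 5 Cfb went from 0.125 to 0.61 CPM and from 0.107 to 0.602 CPM. The interferon marker sums were 68.8 to 80.2 CPM with nc shRNA and 465.5 to 3540 CPM with P16 shRNA in these cells, and their part in the counts of Cfb was not tested.

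Overexpression in Cd146+ cells was compared over empty vector libraries numbered 2, 4 and 5 and P16 libraries numbered 1, 3 and 5, which share only number 5. C3, C1s1 and C1ra had higher group means with P16, and none of them passed the adjustment over all genes. C3 had 17.5, 54.3 and 107 CPM with the empty vector in numbers 2, 4 and 5 and 129, 672 and 145 CPM with P16 in numbers 1, 3 and 5, and the groups did not overlap. The log2 fold change was 2.37 (SE 0.91, adjusted p = 0.986 by edgeR). C1s1 had 51.3, 30.0 and 59.0 CPM against 228, 420.3 and 63.3 CPM, again without overlap, and a log2 fold change of 2.32 (SE 0.67, adjusted p = 0.986 by edgeR). C1ra had 65.1, 45.1 and 50.3 CPM against 204, 299.7 and 44.5 CPM, and 1.76 (SE 0.64, adjusted p = 0.986 by edgeR). These 3 of the 5 tested members had p under 0.05, where 3.53% of 14860 genes did (1.55% with a higher level), 0% had an adjusted p under 0.05 (edgeR), and 8.53% had groups that did not overlap. The mesothelial sums were 28.5, 79.2 and 233 CPM with the empty vector in numbers 2, 4 and 5 and 168, 1335 and 247 CPM with P16 in numbers 1, 3 and 5, and their part in these differences was not tested.

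Within number 5, the only one with both constructs, the ratio of P16 to the empty vector was 1.35 for C3, 1.07 for C1s1 and 0.884 for C1ra. With the block over 12 libraries, in which the empty vector enters through number 5 alone, the log2 fold changes were 0.45 (SE 0.14, adjusted p = 1 by edgeR), 0.26 and -0.080. C3 alone of the members kept a p under 0.05 in that fit, where 1.78% of genes had one. A term for the sex-linked transcripts, added after the data were seen, gave 2.67 for C3, 1.59 for C1s1 and 0.93 for C1ra, none of them at p under 0.05 (1.64% of genes were). Without the P16 library numbered 3, which stood apart by its endothelial markers, they were 1.21, 1.65 and 1.24, and C1s1 alone had p under 0.05 (1.54% of genes did). The construct and the replicate number can be told apart here only in number 5.

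C4b and Serping1 had lower means with P16 and did not pass. C4b had 8.39, 76.8 and 5.67 CPM with the empty vector and 17.1, 13.5 and 5.21 CPM with P16 (log2 fold change -1.34, SE 1.06), and without empty vector number 4 the value turned to 0.76. Serping1 had 11.6, 6.55 and 10.3 CPM against 4.85, 0.911 and 11.1 CPM (log2 fold change -0.74, SE 0.81) and 0.13 with the block. Cfb had 3, 0 and 5 counts with the empty vector and 1, 3 and 9 with P16.

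**Figure D5:**
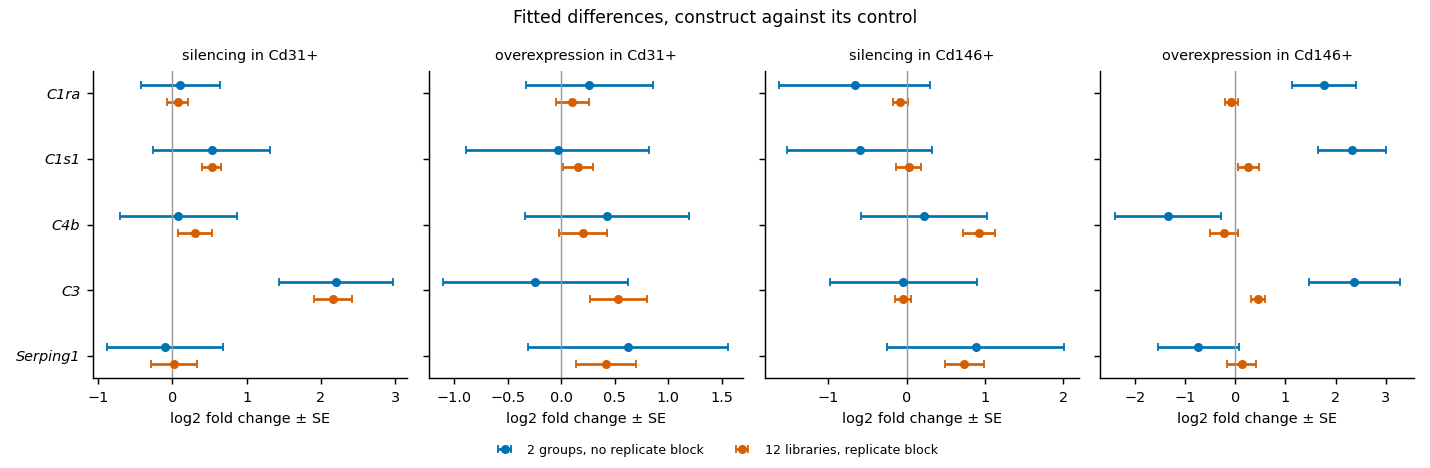
Log2 fold change of construct against control with its standard error (SE) for the 5 tested members in the 4 comparisons, from the 2 groups without a replicate block (blue) and from the 12 libraries of the population with the block (orange). C3 with silencing in Cd31+ cells is near 2.2 in both fits, while the values of C1ra, C1s1 and C3 with overexpression in Cd146+ cells move from 1.76 to 2.37 down to between -0.080 and 0.45 with the block.

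The effect of silencing on C3 was set between the populations in a fit over all 24 libraries. It was lower in Cd146+ than in Cd31+ cells by a log2 difference of -2.23 (SE 1.42, adjusted p = 1 by edgeR). With the block of replicate numbers within each population it was -2.21 (SE 0.33, adjusted p = 0.125 by edgeR). At an adjusted p under 0.05, 0% of 16524 genes were called in either fit (1.2% and 4.55% at p under 0.05). C1s1 differed by -1.12 (SE 1.33) and, with the block, by -0.50 (SE 0.21, adjusted p = 0.986 by edgeR), both C3 and C1s1 with a p under 0.05 under the block. The effects of overexpression differed by 2.66 for C3 (SE 1.43, adjusted p = 0.989 by edgeR), with no member among the 3.82% of genes at p under 0.05, and the block turned this to -0.082.

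With the control constructs, Cd146+ cells were set against Cd31+ cells over 6 libraries each. C3 was higher in Cd146+ cells by 1.65 (log2, SE 0.72, 3.13-fold, adjusted p = 0.267 by edgeR) and Serping1 by 1.63 (SE 0.77, 3.08-fold, adjusted p = 0.298 by edgeR). Both had p under 0.05. Among 16524 genes, 16.6% had such a p and 0.26% an adjusted p under 0.05 (edgeR). The 6 Cd31+ control libraries had 9.10 to 94.7 CPM of C3 and the 6 Cd146+ ones 17.5 to 399.5 CPM, so that they overlapped. C1ra, C1s1 and C4b had log2 differences of 0.88, 0.74 and 0.47 without a p under 0.05. Without the Cd146+ libraries numbered 3, C3 was at 1.14 and no longer at p under 0.05, and Serping1 at 1.89 (adjusted p = 0.143 by edgeR), where 18.6% of genes had p under 0.05. Numbers 1, 2, 3 and 5 occur in both populations, but same-numbered libraries of different populations did not all deviate together (r from -0.0773 to 0.604, median 0.134 over 27 pairs), so the number was not taken to pair them.

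Over the list of 52 complement genes, 23 to 33 were tested in each comparison. Without the block, an adjusted p under 0.05 was reached by 0 of them in every comparison (edgeR). At p under 0.05, 2 of 23 were higher with silencing in Cd31+ cells (C3 and Thbd), beside 9.51% of all genes, a share near the background. With overexpression in Cd146+ cells 5 of 28 were higher (C3, C1s1, C1ra, Colec11 and C4bp), beside 1.55% of all genes. With overexpression in Cd31+ and silencing in Cd146+ cells it was 0 of 25 and 0 of 29. The median log2 fold change of the tested list was -0.046, 0.18, 0.22 and 0.14 for silencing and overexpression in Cd31+ and then in Cd146+ cells, beside 0.00342, 0.01, 0.03 and -0.00269 over all genes tested.

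With the block over 12 libraries, 5 genes of the list were higher and 2 lower at an adjusted p under 0.05 with silencing in Cd31+ cells (25 tested, edgeR), where 16.8% of all genes were called in either direction. Beside C3 and C1s1, the higher ones were thrombomodulin (Thbd, log2 fold change 0.99), clusterin (Clu, 0.65), an inhibitor of the terminal complex, and the C4b-binding protein (C4bp, 1.17). The lower ones were the lectin pathway genes Colec11 (-0.90) and Masp1 (-0.55). Their adjusted p ran from 0.000544 (C3) to 0.0156 (C1s1, edgeR). In Cd146+ cells 3 of 33 were higher, C4b (0.93), Thbd (0.78) and Clu (0.45), and 0 lower, where 8.33% of all genes were called in either direction, a share near that of the list. With the block within the 6 libraries 0 genes of the list were called in these cells (edgeR), and 6 of the 29 tested had p under 0.05 (5 higher, 1 lower). The share of all genes with such a p in that fit is not given, so that this count stands without a background. With overexpression 0 genes of the list had an adjusted p under 0.05 in either population (edgeR, 0.00648% of all genes did in Cd31+ and 0.0126% in Cd146+ cells). At p under 0.05 there were 9 of 25 in Cd31+ cells (8 higher, 1 lower), beside 11.4% of all genes, and 2 of 33 in Cd146+ cells (C1qa and C3, both higher), beside 1.78% of all genes.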

How the data were processed

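The authors deposited raw read counts per gene for 24 libraries, which are whole numbers without normalization. The FPKM values were also deposited by the authors, and were used here only to compare levels between genes. The table also holds the authors' own fold changes and p-values of each comparison, which were not used. The submitters' processing notes name fastp and the build mm9; the aligner and the counter are not given in the sources used here, and whether strand was used in counting was not settled. RNA quality control, sequencing and the first analysis were done by Novogene.

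Counts were analysed in R 4.3.3 with edgeR 4.0.16 (filterByExpr, TMM, robust quasi-likelihood fit, two-sided quasi-likelihood test, Benjamini-Hochberg adjustment over all genes tested). The 3 libraries of a construct were set against the 3 of its control, and differences between populations over 24. CPM are TMM-normalised over the 24 libraries, and log2 CPM have a prior count of 2. DESeq2 1.42.0 gave an alternative test. As nothing says that libraries come from separate animals, p-values measure only the spread between these libraries. The fits of a construct against its control without the block were run on simulated data with known changes. The simulated spread was fixed and held no effect of the replicate number, so that the run does not bear on the fits with the block.

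Replicate numbers come from the labels, which do not tell their meaning. Same-numbered libraries of a population correlated after the group means were taken out (lowest r 0.377 and median 0.642 over 13 pairs in Cd31+ cells, 0.287 and 0.718 over 10 pairs in Cd146+ cells; medians of -0.207 and -0.124 between different numbers), so the numbers were taken to pair the libraries.

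The members and gene lists were chosen with earlier results of these data known. Named genes are the 6 members, Cdkn2a, the genes of the complement list at an adjusted p under 0.05, at p under 0.05 in at least 2 comparisons of a construct or with the highest mean FPKM of a role class, and the 3 genes most like each member (mean log2 CPM of at least 1). A gene of the complement list is not reported here and was left out of the counts of the list. Other genes of the list were named after their values were seen. Alternatives were DESeq2's size factors and Wald test, no filter beyond 1 count, a stricter filter (mean count of 10 or more), 1 fit over 12 libraries, the replicate block and each library left out. Added after the data were seen were the test of the replicate numbers, the fits without the Cd146+ libraries numbered 3, the term for the sex-linked transcripts and the number as a term across populations.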

Additional observations from a re-analysis of the deposited data

Results flagged for a closer look

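C3 was flagged because its effect of silencing differed between the populations at an unadjusted p under 0.05 (edgeR, replicate block over 24 libraries). The log2 difference was -2.21 (Cd146+ minus Cd31+, SE 0.33, adjusted p = 0.125 by edgeR). Within the shared numbers the ratio of C3 was 5.61, 5.55 and 2.87 in Cd31+ cells and 1.11 and 0.877 in Cd146+ cells. By the same test C1s1 differed at -0.50 (SE 0.21, adjusted p = 0.986 by edgeR). Both had a p under 0.05 before the adjustment over all genes, and neither passed the adjustment. Of the 16524 genes tested in that fit, 4.55% had such a p. Groups of 3 libraries were not tested for single libraries far from the others.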

How the results depend on the processing

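The replicate block moved most values. Within the 6 libraries it gave 2703 genes and 2 members for silencing in Cd31+ cells, 92 genes and 1 member for overexpression in Cd31+ cells, and 1 member for silencing in Cd146+ cells (genes at an adjusted p, members at a p under 0.05, throughout). Over 12 libraries it gave 2586 genes and 2 members, 1 gene, 1326 genes and 2 members, and, for overexpression in Cd146+ cells, 2 genes and 1 member. Over 24 libraries it gave 2 members for the difference of silencing and 13 genes for that of overexpression. Of all genes, 11.4% (Cd31+) and 1.78% (Cd146+) had p under 0.05 with overexpression over 12 libraries, and 4.55% for the difference of silencing over 24. Without the block it was 19.8% and 3.73% for silencing and overexpression in Cd31+ cells, and 11.6% and 3.53% in Cd146+ cells. Such shares are not given for the block within 6 libraries, for silencing over 12 libraries or for most settings that follow. Their counts of members stand without a background. Directions turned with the block within 6 libraries for Serping1 with silencing (0.044) and C1s1 and C3 with overexpression in Cd31+ cells (0.30 and 0.75), over 12 libraries for the same values (0.027, 0.16 and 0.53), for C1s1 with silencing (0.026) and C1ra and Serping1 with overexpression in Cd146+ cells (-0.080 and 0.13), and over 24 libraries for C1ra and C3 in the difference of overexpression (-0.18 and -0.082). Between the populations, where numbers were not taken to pair libraries, a term for the number gave 775 genes and 4 members, with C1ra at 1.27 and C1s1 at 1.39 (adjusted p of 0.000447 and 0.000532 by edgeR), C3 at 1.81 and Serping1 at 1.38; the planned term for the number within each population could not be fitted there. At an adjusted p under 0.05, apart from that fit, the block called C3 and C1s1 with silencing in Cd31+ cells and C4b in Cd146+ cells. It changed no other call of a member at that threshold. At an unadjusted p under 0.05 it changed more. Over 12 libraries C1ra and C1s1 lost such a p with overexpression in Cd146+ cells, and Serping1 gained it with silencing there. Over 24 libraries C3 and C1s1 gained it in the difference of silencing. The cause of the other changes was not tested.

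All genes with at least 1 count gave 1294 genes and 0 members for silencing in Cd31+ cells, 10 genes for overexpression there, 19 genes and 1 member for silencing and 1 member for overexpression in Cd146+ cells, and 1 member between the populations, as did the filter at a mean count of 10. DESeq2's Wald test gave 1096, 4, 333 and 1 genes in the 4 comparisons, 3 for the difference of overexpression and 565 between the populations. 1 fit over 12 libraries gave 373 genes for silencing in Cd31+ and 11 in Cd146+ cells. Without the Cd146+ libraries numbered 3, overexpression in Cd146+ cells gave 1 member and the contrast of populations 19 genes and 1 member, and C4b turned to -1.07 for silencing and to -1.15 in its difference. The term for the sex-linked transcripts gave 0 members for overexpression in Cd146+ cells and 104 genes between the populations, and turned C1s1 with overexpression in Cd31+ cells (0.036) and C1s1 (0.00265), C3 (0.14) and Serping1 (-0.12) with silencing in Cd146+ cells.

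With 1 library left out at a time, silencing in Cd31+ cells gave 0 to 64 genes and 0 to 1 members, silencing in Cd146+ and overexpression in Cd31+ cells 0 genes and 0 to 1 members, and overexpression in Cd146+ cells 0 genes and 1 to 3 members. The difference of silencing gave 0 genes and 0 to 2 members, that of overexpression 0 to 12 genes and 0 to 1 members, and the contrast of populations 3 to 201 genes and 0 to 3 members. Log2 values that changed sign ran, for silencing in Cd31+ cells, from -0.25 to 0.55 (C1ra), -0.39 to 1.00 (C4b) and -0.61 to 0.25 (Serping1), and for overexpression there from -0.37 to 0.90 (C1ra), -0.96 to 1.23 (C1s1), -0.29 to 1.55 (C4b), -0.72 to 1.13 (C3) and -0.088 to 1.75 (Serping1). In Cd146+ cells they ran from -1.92 to 0.15 (C1s1), -1.05 to 0.67 (C4b) and -1.52 to 0.97 (C3) for silencing and from -1.83 to 0.76 (C4b) for overexpression. Between the populations C4b ran from -1.14 to 0.59 (difference of silencing), -2.89 to 0.32 (difference of overexpression) and -0.57 to 1.03 (control constructs). C3 with silencing in Cd31+ cells ran from 1.36 to 2.62.

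Cfb could not be tested at these counts, and 3 libraries a group leave a fold change of C1ra, C1s1, C4b or Serping1 with a standard error of 0.53 to 1.13 without the block.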
